A study of Mus musculus with 2 samples.

Results

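The lysosomal cathepsins were described as 10 mouse genes, Ctsa, Ctsb, Ctsc, Ctsd, Ctsf, Ctsh, Ctsk, Ctsl, Ctss and Ctsz, out of 20657 genes with a named probe. A probe was assigned to a cathepsin when its design accession was a RefSeq transcript of that gene, which gave 12 of 55671 probes. Ctsa and Ctsd had 2 probes each and the other 8 genes had 1, and every one of these probes was printed as 1 spot per array. RNA came from ATDC5, a mouse chondrogenic line that is driven into cartilage differentiation with a supplement of insulin, transferrin and selenite (ITS). There were 2 stable lines with a transgene switched on by doxycycline. In the A-CEBP line it encoded A-CEBP, an inhibitor that dimerises with C/EBP transcription factors and so blocks their contact with DNA, and in the control line it encoded GFP. Both lines received 2 µg/mL doxycycline for 2 days and then ITS for 3 weeks, per the labels. Each line was represented by 1 sample on 1 array, so the spread between cultures is unknown, no p-value was computed, and the action of the transgene cannot be told apart from anything else in which these lines or dishes differed.

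Cathepsins are proteases that mature in the acid of the lysosome. Most are papain-like cysteine proteases (Ctsb, Ctsc, Ctsf, Ctsh, Ctsk, Ctsl, Ctss and Ctsz), whereas Ctsd encodes an aspartic protease and Ctsa a serine carboxypeptidase. They are made as inactive precursors, carried to the lysosome largely by mannose 6-phosphate receptors, and held in check outside it by cystatins and related inhibitors. In skeletal tissue, cathepsin K is known for cutting fibrillar collagen in osteoclasts, and cathepsins B, D and L for their part in the turnover of cartilage proteoglycan and collagen.

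The upstream sequences of Ctsk, its neighbour Ctss, Ctsl, Ctsd and Ctsf are printed as examples of different outcomes on the arrays. Ctsk was the cathepsin furthest apart between the samples, Ctss was not seen, Ctsl and Ctsd stayed close, and Ctsf was among the higher ones in A-CEBP. Each is the run of 250 bases just before the annotated start, 5′ to 3′ on the strand of the gene, from RefSeq on build GRCm38.p6. The position is chr3:95498960-95499209 on the plus strand for Ctsk, chr3:95526536-95526785 on the plus strand for Ctss, chr13:64370521-64370770 on the minus strand for Ctsl, chr7:142387828-142388077 on the minus strand for Ctsd and chr19:4854915-4855164 on the plus strand for Ctsf. Capitals mark letters that match any of the 7 searched motifs.
Ctsk: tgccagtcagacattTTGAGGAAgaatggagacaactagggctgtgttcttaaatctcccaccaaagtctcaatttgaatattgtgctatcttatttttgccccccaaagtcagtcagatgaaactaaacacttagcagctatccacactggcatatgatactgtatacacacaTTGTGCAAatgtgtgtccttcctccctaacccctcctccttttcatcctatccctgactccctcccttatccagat
Ctss: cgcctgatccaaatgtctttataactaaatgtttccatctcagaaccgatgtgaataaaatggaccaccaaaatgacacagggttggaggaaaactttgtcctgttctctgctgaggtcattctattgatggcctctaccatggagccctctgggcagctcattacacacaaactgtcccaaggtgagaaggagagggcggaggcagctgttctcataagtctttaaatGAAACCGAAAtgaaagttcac
Ctsl: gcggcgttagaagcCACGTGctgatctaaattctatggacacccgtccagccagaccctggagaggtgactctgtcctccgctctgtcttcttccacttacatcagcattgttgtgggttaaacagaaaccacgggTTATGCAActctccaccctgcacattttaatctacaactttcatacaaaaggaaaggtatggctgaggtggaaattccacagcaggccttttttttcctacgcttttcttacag
Ctsd: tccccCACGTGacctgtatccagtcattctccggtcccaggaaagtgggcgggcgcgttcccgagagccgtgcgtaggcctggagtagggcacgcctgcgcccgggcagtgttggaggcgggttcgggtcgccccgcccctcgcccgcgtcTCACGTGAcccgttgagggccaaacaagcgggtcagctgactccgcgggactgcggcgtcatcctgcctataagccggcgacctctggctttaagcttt
Ctsf: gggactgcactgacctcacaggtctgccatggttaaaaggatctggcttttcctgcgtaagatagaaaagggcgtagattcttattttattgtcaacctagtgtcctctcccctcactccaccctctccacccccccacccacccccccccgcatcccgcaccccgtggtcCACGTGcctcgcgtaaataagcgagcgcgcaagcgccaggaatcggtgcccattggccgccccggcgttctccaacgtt

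In the stretch before Ctsk, the capitals are 2 matches to TTNNGNAA, a loose C/EBP-like pattern, at bases -235 to -228 and -76 to -69 counted back from the start, with -1 the last base printed. The second of them also matched the narrower TTGCNNAA on the other strand, over the same bases. The Ctsl stretch held 1 match to both patterns, at -114 to -107, and the E box CACGTG at -236 to -231. Both strands were searched for every motif. Of 32841 RefSeq windows of this length, 36.9% held TTNNGNAA and 9.57% held TTGCNNAA, and among the 8 cathepsin genes with a window, only Ctsk and Ctsl held either. No window for Ctsb or Ctsh was used here. In the Ctsd stretch the capitals are CACGTG at -245 to -240 and the longer TCACGTGA at -99 to -92, which contains a second CACGTG. TCACGTGA is the core of the element bound by the lysosomal regulators TFEB and TFE3. It was also in the window of a downstream start of Ctsa, and in 0.786% of all windows. The shorter CACGTG was in windows of Ctsa (only inside TCACGTGA), Ctsd, Ctsf (at -79 to -74) and Ctsl and in 6.02% of all windows. The Ctss stretch held GAAA, any 2 bases, and GAAA again, an interferon-response-like pattern found in 2.98% of windows, at -21 to -12. The STAT-like TTCNNNGAA, in 7.02% of windows, matched only the window of Ctsc. The NF-kB-like run of GGGAC followed by TTTCC, in 0.14% of windows, matched no cathepsin window. These matches describe letters in the reference sequence.

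The 2 arrays were close in brightness. By the mark of the scanner software, 58.0% of 59305 spots that were not controls lay well above background in A-CEBP and 54.6% in GFP, and none was saturated. Levels below are log2 of the processed signal minus the 75th percentile of the array, so that 0 marks that percentile, which was 906 intensity units in the A-CEBP sample and 872 in the GFP sample. Differences are A-CEBP minus GFP on the log2 scale. The scanner error model gave a median error of 0.21 for a difference. The SD over replicate spots was 0.11 (291 probes) and that between probes of a gene 0.19 (3601 genes). These errors cover the measurement and not the culture. The labelled chondrocyte identity was checked against 12 markers, of which 11 were well above background on both arrays. Col2a1, the collagen of cartilage, was at 8.65 in the A-CEBP sample and 8.22 in the GFP sample. Acan, encoding aggrecan, was at 3.39 in A-CEBP and 2.09 in GFP, and Sox9, a chondrocyte transcription factor, at 2.30 in A-CEBP and 1.69 in GFP. Of the 11, 10 were higher in A-CEBP, with a median difference of 0.63, where 59.1% of all genes were higher. At least 2-fold higher were 3, namely Acan (1.30), Hapln1 (1.42) and Snorc (1.37), against 1.26% of the 13860 genes measured on both arrays. Fibroblast markers were read as well. All 6 were measured on both arrays, 4 higher and 2 lower in A-CEBP and none 2-fold apart, with a median difference of 0.17. Among them, Col1a2 was at 9.10 in the A-CEBP sample and 8.83 in the GFP sample. The part of these marker differences in the cathepsin values was not tested.

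Of the 10 cathepsins, 8 were well above background on both arrays, and Ctsc and Ctss on neither. Among the 8, represented by their brightest probe, 1 (Ctsk) was at least 2-fold lower in the A-CEBP sample, against 1.7% of 13860 genes measured on both arrays. None was at least 2-fold higher, against 1.26% of all genes, and none of the other 7 reached 1.5-fold in either direction, which 8.51% of all genes did. In sign, 5 cathepsins were higher and 3 lower, where 59.1% of all genes were higher, and the tally became 4 and 4 in 5 of 12 alternative settings and 3 and 4, with Ctsz at 0.00, in 1. Their median difference was 0.08, and that of all genes was 0.05. Without Ctsk the remaining 7 lay between -0.28 and 0.49. With 1 array each, no difference of any size could be separated from variation between dishes.

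**Figure D1:**
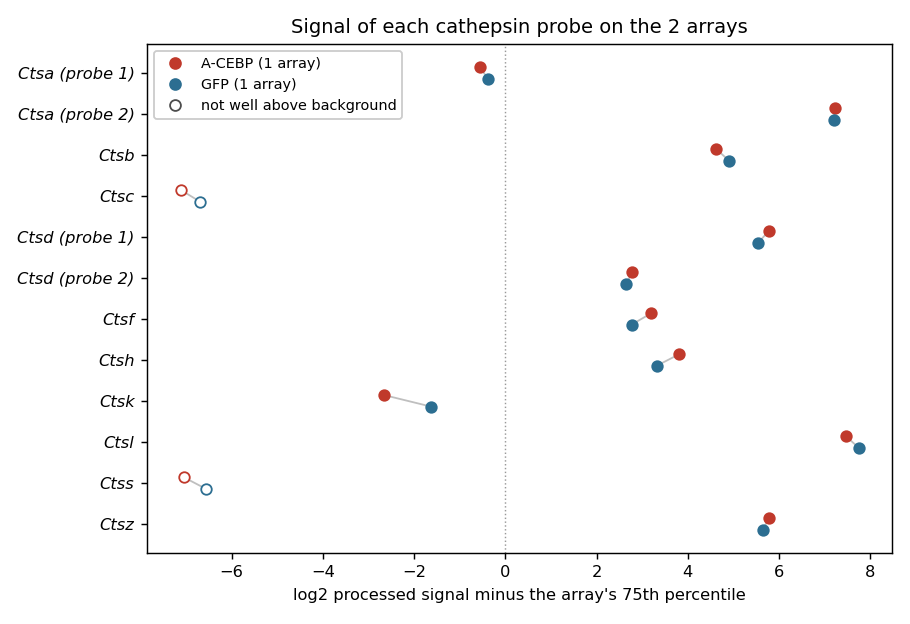
Signal of each cathepsin probe (rows) in the A-CEBP sample (red, upper point) and the GFP sample (blue, lower point), as log2 processed signal minus the 75th percentile of the array, with open points for probes not well above background. Ctsk is the widest pair among the filled points, and Ctsc and Ctss sit at the far left with open points. Signals of different probes are not comparable with each other.

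Ctsk, the collagen-cutting cathepsin of osteoclasts, was the lowest relative to GFP. Its spot read 144 intensity units in the A-CEBP sample and 282 in the GFP sample, or -2.65 and -1.63 on the scaled log2 scale. The difference was -1.02, a 2.03-fold lower signal, with an error of 0.22 by the scanner error model. The A-CEBP spot was thus the dimmer of the pair by several times the measurement error. The place of Ctsk at the 2-fold rule was marginal. Of 12 alternative settings 8 could move the value, since 4 change nothing for a gene with 1 probe and 1 spot. Over those 8 the difference ranged from -1.08 with the authors' deposited values to -0.64 with normexp background and quantile normalization. It was lower in A-CEBP in each of the 8 and passed 2-fold in 3, with median scaling, cyclic loess and the deposited values. Across all genes, 1.62% had a lower difference than Ctsk. At its own brightness the spread was wider. Of 1197 genes within 0.5 log2 units of the mean level of Ctsk, 3.34% were at least as low and the SD of the difference was 0.53, against 0.42 over all genes.

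The Ctsk value also differed with the background that was taken away. The raw median pixel reading was 210.5 in the A-CEBP sample, over a local background of 41, and 334 in the GFP sample, over a local background of 46. Simple subtraction of the local background left 169.5 in A-CEBP and 288 in GFP, a 1.70-fold lower signal, where the unscaled processed signals gave 1.96-fold. For the other 9 measured cathepsin probes, the same 2 readings of the difference lay within 0.07 of each other on the log2 scale.

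**Figure D2:**
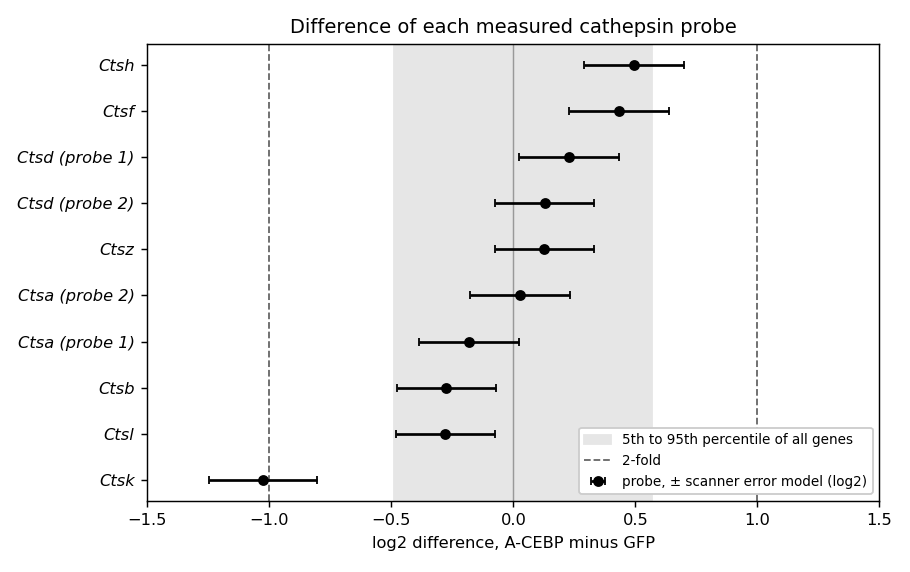
Difference between the A-CEBP and GFP samples for the 10 measured cathepsin probes, as log2 A-CEBP minus GFP, with bars for the scanner error model, the 5th to 95th percentile of all genes in grey and dashed lines at 2-fold. Ctsk alone lies outside the grey range, and the other 9 probes lie between -0.28 and 0.49.

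The main endopeptidases of the lysosome differed little. Ctsl, whose product cuts many proteins in endosomes and lysosomes, read 160217 units in the A-CEBP sample and 187123 in the GFP sample (7.47 and 7.75), a difference of -0.28. Ctsb, which encodes an endopeptidase that also trims dipeptides, read 22375 units in A-CEBP and 26065 in GFP, a difference of -0.27. Both were slightly lower in A-CEBP, by 1.36 and 1.34 times the error of 0.20. They were negative in the 8 alternative settings that could move them, from -0.44 to -0.08 for Ctsl and from -0.33 to -0.08 for Ctsb. Of the 99 genes as bright as Ctsl, 4.04% were at least as low and none was 2-fold lower, with an SD of 0.24. Ctsd, the aspartic protease, was slightly higher in A-CEBP by both probes. The brighter read 49517 units in A-CEBP and 40722 in GFP, a difference of 0.23. The other read 6230 units in A-CEBP and 5492 in GFP, a difference of 0.13, so its probes differed by less than their error.

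The upward end was taken by Ctsh and Ctsf. Ctsh, which encodes an enzyme that mainly removes single amino acids from the start of peptides, read 12750 units in the A-CEBP sample and 8723 in the GFP sample. The difference of 0.49 corresponds to 1.41-fold and to 2.42 times the error. Ctsf, a cysteine cathepsin with a long propeptide, read 8331 units in A-CEBP and 5940 in GFP, a difference of 0.43 or 1.35-fold, at 2.13 times the error. Both were higher in A-CEBP in the 8 alternative settings that could move them, from 0.39 to 0.69 for Ctsh and from 0.38 to 0.63 for Ctsf. Among all genes, 6.49% had a higher difference than Ctsh and 8.19% a higher one than Ctsf. With Ctsk, these were the 3 cathepsins whose difference exceeded 2 errors of the scanner model.

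The carboxypeptidases Ctsz and Ctsa were the closest. Ctsz read 49642 units in the A-CEBP sample and 43780 in the GFP sample, a difference of 0.13. Ctsa, whose product also shields the lysosomal sialidase and beta-galactosidase, read 135937 units in A-CEBP and 128499 in GFP by its brighter probe, a difference of 0.03. Its other probe read 613 units in A-CEBP and 669 in GFP, a difference of -0.18. The probes of Ctsa thus disagreed in sign, each within its error of 0, and the sign of the brighter one turned in 4 of 8 other scalings or background corrections. The genes of its known partners were also near 0, with Neu1, the sialidase, at -0.10 and Glb1, the galactosidase, at 0.20.

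**Figure D3:**
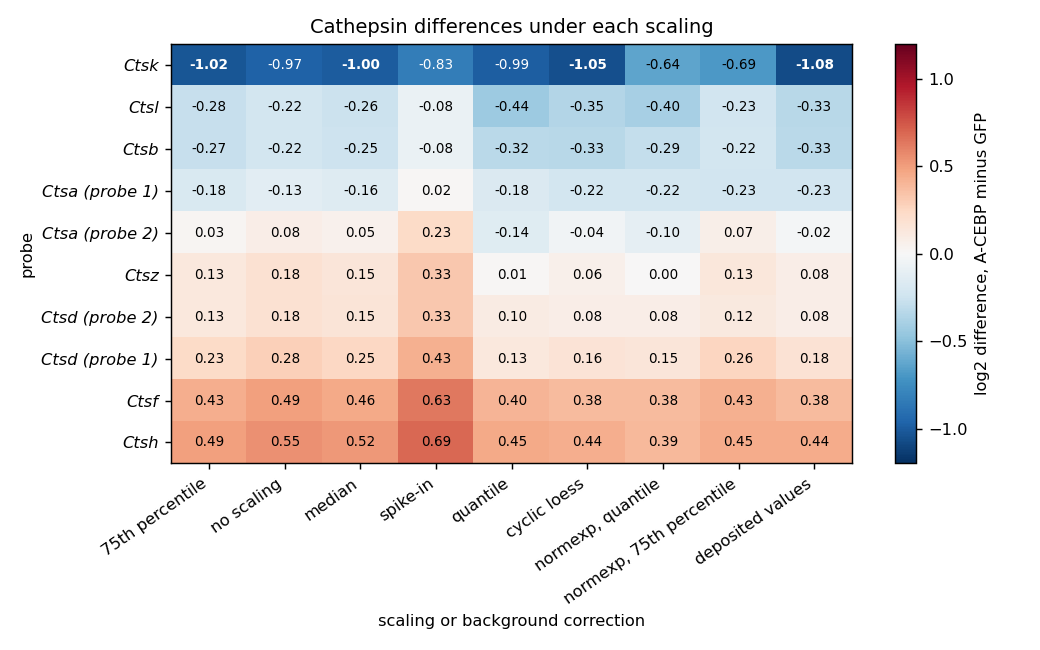
Difference (log2 A-CEBP minus GFP, colour and printed value) of each measured cathepsin probe under the 75th percentile scaling and 8 other scalings or background corrections, with values of at least 2-fold in bold. Ctsk stays the most negative probe in every column, and the brighter Ctsa probe is the one whose sign turns most often.

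Ctsc and Ctss were not seen in either sample. Ctsc, which encodes the dipeptidyl peptidase that activates serine proteases of leukocyte granules, read 6.55 units in the A-CEBP sample and 8.40 in the GFP sample. Ctss, whose product processes the invariant chain in antigen-presenting cells, read 6.80 units in A-CEBP and 9.15 in GFP. A spot could be marked as well above background from 24.8 units in A-CEBP and from 32.9 units in GFP, so neither gene has a fold here, and their transcripts may be present below that limit. In the RefSeq gene order Ctss is the next protein-coding gene after Ctsk on chromosome 3, so of this adjacent pair only Ctsk gave a signal.

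Ctsk and Ctss are also abundant in cells of the monocyte lineage, and markers of those cells were read beside them. Of 17 leukocyte and macrophage markers with a probe, 9 were well above background on both arrays and 8 on neither. The unseen 8 were Ptprc, the pan-leukocyte gene, Adgre1, Aif1, Tyrobp, Cd53, Mrc1, Cx3cr1 and Spi1. The median difference of the 9 measured markers was -0.36. Of these, 1 was at least 2-fold lower, against 1.7% of all genes. This marker was Itgb2, an integrin subunit of leukocytes, at -1.64. Cd14 was at -0.84, Lyz2 at -0.83, Lyz1 at -0.51 and Fcer1g at -0.36. Lyz2 was dim, at 73.0 units in A-CEBP and 125 in GFP, and was at -0.46 with normexp and quantile normalization. Csf1r was at -0.14 and turned positive when its probes were averaged. Coro1a was at 0.18. Laptm5, at 0.38, was dim too, at 83.6 units in A-CEBP and 61.8 in GFP, and at 0.07 with normexp and the 75th percentile. Itgam was at 0.23 by its brightest probe and -0.57 by its other, and turned to -0.17 when they were averaged. The summed intensity of the 9 was 26481 units in A-CEBP and 23478 in GFP, mostly from that Itgam probe. Over the other 8 genes it was 3492 units in A-CEBP and 4615 in GFP. Of 11 osteoclast markers, 8 were measured on both arrays and none was 2-fold apart (median 0.06). Calcr, Dcstamp and Mmp9 were not well above background on either array. Atp6v0d2, an osteoclast proton pump subunit, was lower in A-CEBP (-0.84), whereas Acp5, the tartrate-resistant phosphatase, differed by 0.42 with its brighter probe and -0.45 with the other. Among the remaining 6, Tnfrsf11a was at 0.47, Nfatc1 at 0.20, Oscar at 0.17, Ocstamp at -0.06, Tcirg1 at -0.21 and Itgb3 at -0.26. Acp5, Ocstamp and Oscar were dim, the brighter Acp5 probe at 93.3 units in A-CEBP and 67.0 in GFP. Oscar turned to -0.03 with normexp and the 75th percentile. The summed intensity of the 8 was 7081 units in A-CEBP and 7352 in GFP. The part of such cells in the Ctsk value was not tested, and fewer cells of a type and less RNA per cell cannot be told apart in bulk RNA.

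Class II antigen presentation, the pathway that cathepsin S serves, was measured in 6 of 8 genes. The other genes, H2-Aa, a class II chain, and H2-DMb2, were not well above background on either array. The median of the 6 was 0.58, with 5 higher, 1 lower and none 2-fold apart, where 59.1% of all genes were higher. This median was 0.36 and 0.35 with normexp background under quantile normalization and the 75th percentile, where all genes had medians of 0.02 and 0.04. With spike-in scaling it was 0.77, where all genes had a median of 0.24. With the 75th percentile of the processed signal, the median of all genes was 0.05. H2-Ab1, a class II chain, was at 0.82, H2-DMa, which helps load peptides, at 0.69, and Ciita, the class II transactivator, at 0.59. Cd74, encoding the invariant chain that cathepsins trim, was at -0.33. Ciita and Cd74 were dim in both samples, at -3.66 and -3.84 in A-CEBP and at -4.25 and -3.51 in GFP. H2-Eb1, with a difference of 0.44, was dim too, at -3.13 in A-CEBP and -3.57 in GFP.

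Of 13 further cathepsin genes, 11 were not well above background in either sample, among them Ctse, Ctsg and the placental cluster (Cts3, Cts6, Cts7, Cts8, Ctsj, Ctsm, Ctsq and Ctsr). Ctso was measured near the limit of detection, at 29.5 units in the A-CEBP sample and 48.6 in the GFP sample, a difference of -0.77 with an error of 0.42. Ctsw, known from cytotoxic lymphocytes, read 283 units in A-CEBP and 207 in GFP, a difference of 0.40.

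The list of cathepsin inhibitors held the largest differences of the pathway. Counted in this list and its median was Serpinh1, a serpin relative that is a collagen chaperone, at 0.29. Of 12 in this list measured on both arrays, 1 was at least 2-fold lower and 1 higher, against 1.7% and 1.26% of all genes (median 0.21). Kng1, encoding kininogen, a plasma protein with cystatin domains, read 3680 units in A-CEBP and 17516 in GFP, a 4.94-fold lower signal (-2.31) that stayed past 2-fold in all 12 alternative settings. Ctla2a, a mouse inhibitor related to cathepsin propeptides, was at 1.04 but dim, at 152 units in A-CEBP and 71.4 in GFP. It passed 2-fold in 9 of 12 alternative settings and was lowest, at 0.62, with normexp background and the 75th percentile. For Kng1 and Ctla2a alike, the 12 include settings that cannot move a gene with 1 measured probe. Ctla2b, a paralog of Ctla2a that may share signal with it, was at 0.69, and Spock2, a proteoglycan, at 0.73. Cst3, encoding cystatin C, the main secreted cystatin, read 348400 units in A-CEBP and 258235 in GFP, a difference of 0.38, and Cstb, the cytosolic cystatin B, was at -0.21. Serpina3n passed detection in GFP alone, at -4.47, with -7.28 in A-CEBP. Its GFP value lay near the limit, since Cst7 at -4.40 was not detected on that array, and no fold is given. Cst7 passed detection in A-CEBP alone, near the limit on both arrays, and has no fold either.

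In 4 lists of sorting factors and other luminal and membrane genes, 76 of 76 genes were measured on both arrays and none was 2-fold apart, with differences from -0.27 to 0.61 and a median of 0.04. Among all genes 1.7% were at least 2-fold lower and 1.26% higher, which is close to that count, so nothing is read from it. The sorting and activation list had a median of -0.03 over 20 genes. Of these, 9 were higher and 11 lower in A-CEBP. Furthest from 0 were Sorl1 at 0.53, Igf2r, the large mannose 6-phosphate receptor, at 0.47, and Sort1 at 0.43 (0.11 by its other probe). The other mannose 6-phosphate receptor gene, M6pr, was at -0.02. The 21 glycosidases and sulfatases had a median of 0.13, led by Manba (0.61), Ids (0.44) and Arsb (0.38). The 12 genes of lipid handling had a median of 0.02, with Gm2a at 0.42, Smpd1 at 0.29 and the cholesterol exporter Npc1 at -0.27. The 23 genes of the membrane and proton pump had a median of 0.04, with Atp6v0a1 at 0.28, Ostm1 at -0.23 and Atp6ap1 at 0.22. Of 20 regulators of lysosomes and autophagy none was 2-fold apart (median -0.01), and those furthest from 0 were lower in A-CEBP. Fnip2, a partner of folliculin, was at -0.73, the Rag GTPase gene Rragd at -0.69 and Mitf at -0.51 (-0.29 by its other probe). Rragd was dim, at 72.1 units in A-CEBP and 112 in GFP, and was at -0.38 with normexp and quantile normalization. The relatives of Mitf, Tfeb and Tfe3, were at 0.16 and 0.03.

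**Figure D4:**
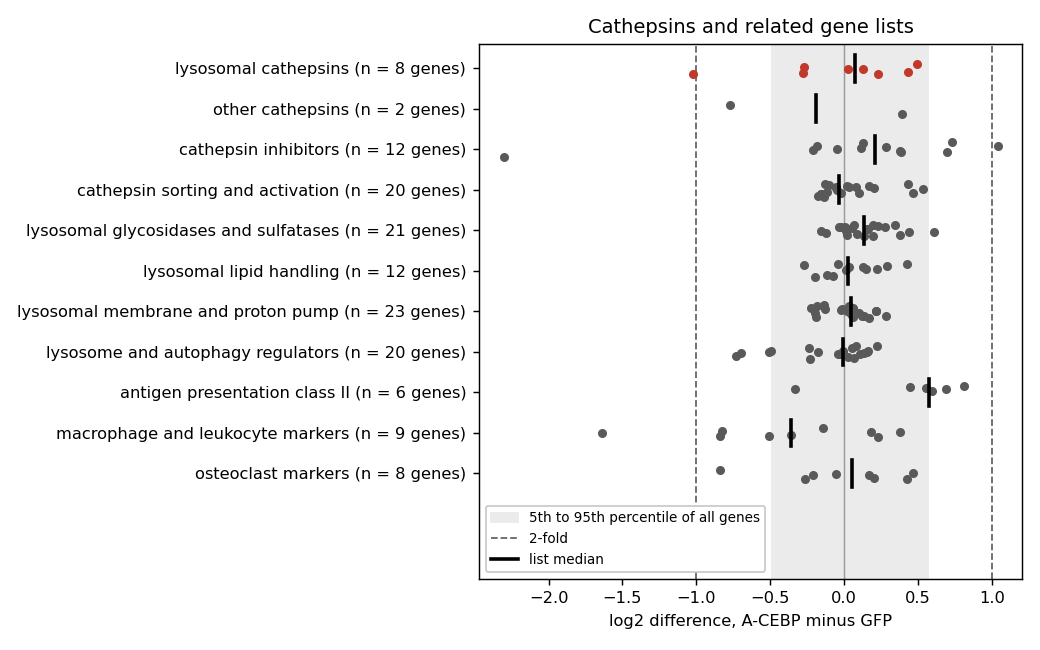
Differences (log2 A-CEBP minus GFP) of the genes measured on both arrays in the lysosomal cathepsins (red) and in related lists (grey), with list medians as black bars, the 5th to 95th percentile of all genes shaded and dashed lines at 2-fold. Most lysosomal genes lie inside the shaded range, with Ctsk among the cathepsins and Kng1 among their inhibitors standing to the left of the 2-fold line.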

How the data were processed

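Total RNA (0.1 µg) was labelled with Cy3 for Agilent mouse arrays read in 1 colour, per the labels. Each deposited scanner file gives the intensity of every spot, on a linear scale, background-subtracted and detrended within the array by Agilent Feature Extraction (10.10.1.1 in the submitters' processing notes) and not scaled between arrays, per the file headers. The flags for detection are other values in those deposited files. The authors' deposited table also holds intensity: each column was the processed signal multiplied by 1 constant, 1.15 for A-CEBP and 1.24 for GFP (column medians 67.4 and 70.9), with no log or centring, and the origin of these constants is not stated here.

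Control spots and 293 outlier spots were left out, and log2 signals were expressed relative to the 75th percentile of their array. Replicate spots were averaged per probe. It was well above background when over 50% of its spots were so marked, and a gene was represented by its probe with the highest mean level among those so marked on both arrays. RefSeq names (GRCm38.p6, for names, neighbours and upstream sequences only, since the array design uses mm9) were found for 27229 probes, 48.9% of 55671. The size rule of 2-fold was tested on simulated data with measurement noise only, without variation between cultures. Alternatives covered scaling, background, probe summary and detection, with Python 3.11.15 and limma 3.58.1. The scanner files used here hold median and not mean spot signals, so normexp (offset 50) was run on the median. The number of arrays limits the precision. The cathepsins, lists and rules were chosen with earlier results of these data known. All cathepsins were named, from each pathway list the 3 genes furthest from 0 and any 2-fold apart, and of the chondrocyte markers Col2a1, Acan and Sox9. Measured marker genes of the monocyte lineage were also named. Hapln1, Snorc, Neu1, Glb1, Cd74, Cst3, Cstb, Ctla2b, Serpina3n, Cst7, Tfeb and Tfe3 were named outside this rule, after their values were seen. The same holds for Col1a2, M6pr, H2-Aa, H2-DMb2, H2-Eb1 and Serpinh1.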

Additional observations from a re-analysis of the deposited data

How the results depend on the processing

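The number of cathepsins at least 2-fold apart, 1 (Ctsk), became 0 without scaling between arrays, with spike-in scaling, with quantile normalization and with normexp background under either scaling, where Ctsk was 1.96-fold, 1.77-fold, 1.99-fold, 1.55-fold and 1.61-fold lower. Relative to the median of all genes, Ctsk was at -1.07 with the 75th percentile, without scaling and with spike-in scaling, which shift all genes by 1 constant, at -1.02 with quantile normalization and at -0.66 and -0.73 with normexp. It stayed at 1 with a 1.5-fold rule. The median over cathepsins, 0.08, was 0.28 with spike-in scaling, which moved the median of all genes to 0.24. The cathepsin median was -0.12 without the filter on dim probes and -0.18 as the median over all probes, settings that add the unseen Ctsc and Ctss. Over the detected cathepsins alone it was -0.06 with quantile normalization and -0.05 with normexp and quantile normalization. The 2 pathway genes at least 2-fold apart became 1 with the deposited values and with normexp under either scaling, 4 in both settings without the detection filter and 3 with spike-in scaling. Ctsb, Ctsf, Ctsh, Ctsk and Ctsl kept their sign in the 8 alternatives that could move them. Ctsd, with 2 probes, kept its sign in all 12, some of which left its value unchanged. Ctsz was at 0.00 with normexp and quantile normalization, and the gene value of Ctsa turned in 6 of 12. The medians for sorting, lipid handling, membrane, regulators, other cathepsins and inhibitors also turned sign in 2 to 5 alternatives. The same 8 cathepsins were detected with the looser flag for a positive and significant signal. No paired analysis was possible because each group had 1 sample, and leaving out a replicate was not possible. Signal over background left Ctsc and Ctss without a fold and Ctso with an error of 0.42.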
